A study of Mus musculus with 6 samples.

Results

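The synaptic vesicle and SNARE genes are the genes whose products store transmitter in vesicles and fuse those vesicles with the membrane. Members were chosen by gene symbol: the synaptotagmins (Syt), syntaxins (Stx) and syntaxin-binding proteins (Stxbp), the vesicle-associated membrane proteins (Vamp), the SNAP family, synapsins, synaptophysin, synaptogyrins, Sv2, complexins, Nsf and its adaptors (Napa, Napb, Napg), Rims and Unc13. A total of 46 genes of 8251 with a single annotated symbol were found, measured by 57 probe sets, and the probe set with the highest mean stood for each gene. The data are 6 arrays, each of total RNA from mouse hippocampus, numbered 1 to 6 as in their titles, from a study of mice that overexpress the neuronal RNA-binding protein HuD (Elavl4). No label gives a genotype, strain, age, treatment or animal for any sample, so none was called overexpressing or control, no test was made, and the values of single samples have no replicate check. The titles carry unexplained codes that are alike in all samples but sample 2.

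At a synapse, vesicles carry the SNARE protein synaptobrevin (Vamp1, Vamp2), and the plasma membrane carries syntaxin and SNAP-25. These proteins zip into a bundle that pulls both membranes together. Synaptotagmins sense the calcium that triggers fusion, complexins clamp and promote it, and Nsf with its adaptors takes the bundle apart afterwards. Relatives of the synaptic SNAREs serve the same fusion step on endosomes, the Golgi apparatus and the endoplasmic reticulum.

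Signals are deposited intensities on a linear scale. To compare samples, signals were divided by the median of their array, so a log2 value of 0 is that median. Genes whose middle value across the 6 samples exceeded 0 are called expressed. By that rule 36 of the 46 members and 4838 of all 8251 genes were expressed. Of the 36, 34 lay above the array median in every sample. Without detection calls, a value under the median is not shown to be above background. The range of a gene is its highest minus its lowest log2 value. In whole tissue, fewer cells of a type and less RNA per cell cannot be told apart.

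The array medians lay between 59.8 (sample 3) and 63.3 (sample 4). The 3' to 5' signal ratio of the pyruvate carboxylase control, a sign of RNA quality, was highest in sample 3 at 3.56 and lowest in sample 2 at 1.57. The transferrin receptor ratio was also highest in sample 3 (3.47), whereas the beta-actin and Gapdh ratios were highest in sample 1 (1.27 and 0.86). Of 10 genes listed as markers of hippocampal neurons, 8 were measured and 6 were expressed, among them Wfs1, Neurod6, Neurod2, Camk2a and Gria1. Prox1, which marks dentate granule cells, was not counted as expressed, with signals of 26.9 to 69.6.

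The promoters of 3 members are shown, chosen from their values described further on. Cplx1 was lowest in sample 4, where Cplx2 was highest, and Syngr1 had the largest range. Each is the 250 bases before the RefSeq transcription start (GRCm38.p6), written 5′ to 3′ on the gene's strand, with capitals marking GGGCGG or its reverse complement CCGCCC, the GC box bound by Sp1 factors. The Cplx1 promoter lies at chr5:108550028-108550277 on the minus strand, that of Cplx2 at chr13:54302306-54302555 on the plus strand, and that of Syngr1 at chr15:80091084-80091333 on the plus strand.
Cplx1: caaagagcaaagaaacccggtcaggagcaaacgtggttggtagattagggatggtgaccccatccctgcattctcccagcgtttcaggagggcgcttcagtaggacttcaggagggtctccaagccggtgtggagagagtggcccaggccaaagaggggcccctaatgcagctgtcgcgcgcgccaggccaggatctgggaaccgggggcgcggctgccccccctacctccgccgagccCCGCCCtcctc
Cplx2: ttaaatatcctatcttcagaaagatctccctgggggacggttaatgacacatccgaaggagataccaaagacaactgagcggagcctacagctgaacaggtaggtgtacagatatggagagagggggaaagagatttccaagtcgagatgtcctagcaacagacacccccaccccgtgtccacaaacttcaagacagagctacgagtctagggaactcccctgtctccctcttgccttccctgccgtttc
Syngr1: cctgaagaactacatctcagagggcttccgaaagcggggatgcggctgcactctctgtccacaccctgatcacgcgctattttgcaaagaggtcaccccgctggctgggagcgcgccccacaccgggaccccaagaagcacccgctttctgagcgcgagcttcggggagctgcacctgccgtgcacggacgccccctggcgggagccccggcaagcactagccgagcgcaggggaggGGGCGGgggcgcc
The Cplx1 and Syngr1 windows each hold 1 GC box and the Cplx2 window holds 0. The G and C content was 64.8% for Cplx1, 50.8% for Cplx2 and 68.4% for Syngr1. RefSeq promoters were at hand for 29 of the 36 expressed members, in 36 windows because some genes have more than 1 start. A GC box was present in 22 of these 36 windows (61.1%), and in 32.7% of the 32851 promoter windows of all genes in the table. The cAMP response element TGACGTCA, searched on both strands, was in 1 of the 36 windows (2.78%) and in 1.55% of all windows. TGACG or its reverse complement CGTCA, which the full element contains, was in 9 of 36 (25%) and in 17.8% of all. The TATA box TATAAA was in 1 of 36 (2.78%) and in 12.4% of all. The member windows are those of expressed genes only, whereas the comparison covers all windows, whether or not their genes were expressed. Shares over expressed genes alone were not computed. These letter matches are a description and were not tied to any level.

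Most members differed little from sample to sample. Their median range was 0.38 on the log2 scale (1.30-fold), beside 0.40 for all 4838 expressed genes. One member, Syngr1, had a range over 1, meaning a highest sample more than 2 times the lowest; that is 1 of 36, where 4.20% of all expressed genes had such a range. A range over 1.5-fold was found in 10 of 36 members (27.8%) and in 23.7% of all expressed genes. Both shares were thus near the background. Among genes at 3 or above on the log2 scale, the 14 members had a median range of 0.38 and all 851 genes one of 0.30. Among dimmer genes the 22 members had 0.42 and all 3987 genes 0.43.

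**Figure D1:**
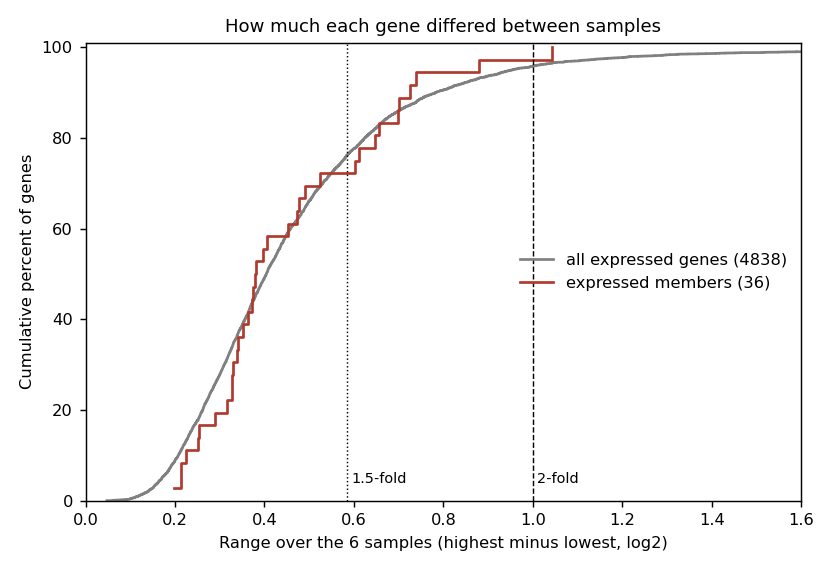
Cumulative percent of genes (vertical axis) by their range over the 6 samples in log2 units (horizontal axis), for the 36 expressed members (red) and all 4838 expressed genes (grey), with vertical lines at 1.5-fold and 2-fold; the axis ends at 1.6 and a few wider genes lie beyond it. The curves lie close together, with medians of 0.38 and 0.40.

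By this scaling, members were most often highest in sample 3 and most often lowest in sample 4. Sample 3 held the highest value of 12 of the 36 members (33.3%) and of 31.1% of all expressed genes. The corresponding shares were 16.7% against 17.3% in sample 1, 11.1% against 15.6% in sample 2, 8.33% against 12.6% in sample 4, 22.2% against 12.1% in sample 5 and 8.33% against 11.4% in sample 6. Sample 4 held the lowest value of 11 members (30.6%), against 20.7% of all expressed genes. For the lowest value the shares were 22.2% against 21.6% in sample 1, 8.33% against 11.6% in sample 2, 11.1% against 11.1% in sample 3, 11.1% against 20.0% in sample 5 and 16.7% against 15.0% in sample 6. These shares move with the scaling. With quantile normalization sample 3 held the highest value of 6 members, behind 9 in sample 1 and 8 in sample 5. It then held that of 19.5% of all expressed genes, behind 21.6% in sample 1. With no scaling beyond the deposited values sample 3 held 10 members, ahead of 9 in sample 5 and 8 in sample 1. Its share of all expressed genes was then 19.1%, behind 21.5% in sample 1. The median deviation of the members from their own medians was 0.02, 0.02, 0.07, -0.05, 0.01 and -0.05 in samples 1 to 6, and that of all expressed genes reached 0.05 in sample 3.

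**Figure D2:**
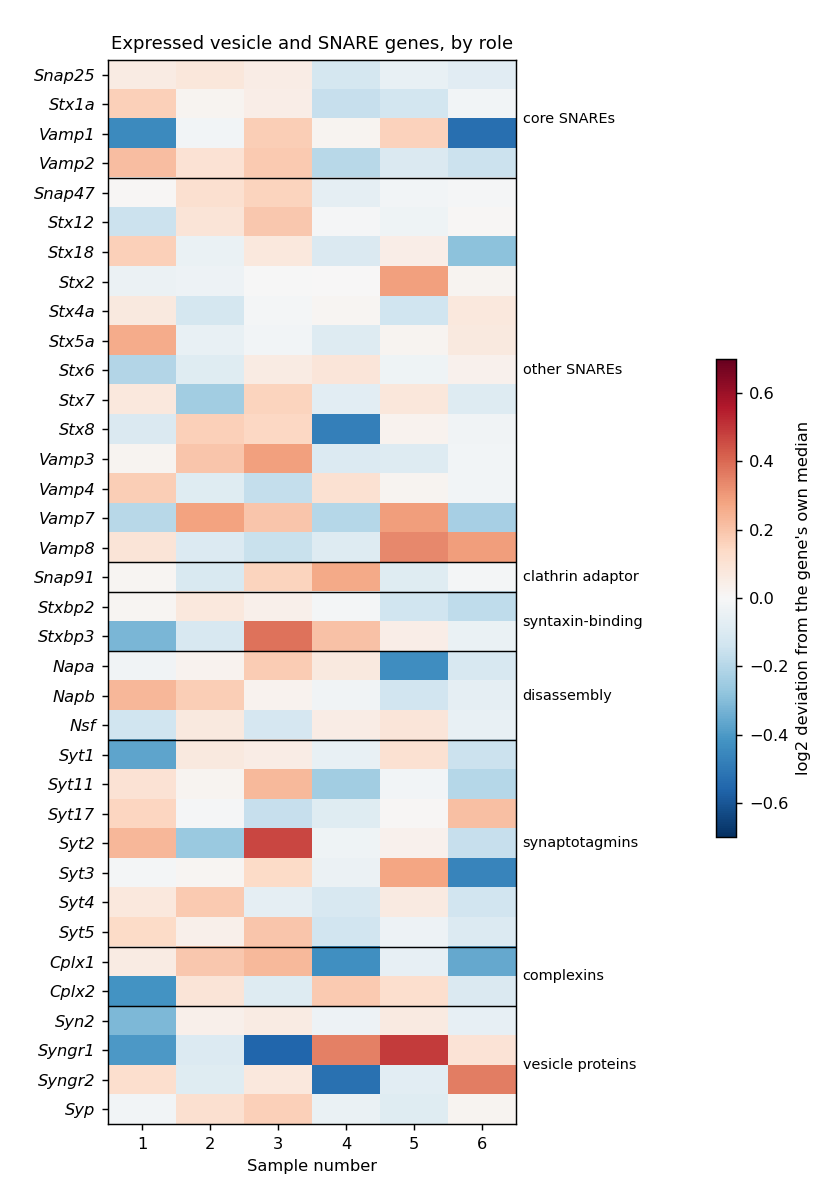
Log2 deviation of each of the 36 expressed members (rows, grouped by role) from its own median over the samples, in samples 1 to 6 (columns); red is above and blue below that median, and each cell is 1 array. Syngr1 shows the widest span, from -0.56 in sample 3 to 0.49 in sample 5, and Cplx1 and Cplx2 are at opposite ends in sample 4.

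Of the core SNAREs of transmitter release, Snap25, Vamp2, Stx1a and Vamp1 were measured and expressed. Snap25, the plasma-membrane SNARE with a pair of helices in the bundle, had signals of 5821, 5761, 5529.7, 5180.1, 5416 and 5286 in samples 1 to 6. Its range of 1.15-fold was lower than that of most expressed genes (8.56th percentile of their ranges). Samples 1, 2 and 3 held its upper values and sample 4 its lowest.

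Vamp2, the main synaptobrevin of forebrain vesicles, had signals of 3549.8, 3207, 3314, 2701, 2870.3 and 2759.6, a range of 1.32-fold. As for Snap25, samples 1, 2 and 3 were above samples 4, 5 and 6. The second Vamp2 probe set had 637, 581, 532, 532, 550.1 and 457, was also highest in sample 1, and was lowest in sample 6 instead of sample 4. Stx1a, the plasma-membrane syntaxin of the synapse, had 451, 399, 396, 363, 369 and 397, with sample 1 standing above the other samples. Its range was 0.33 on the log2 scale and 0.21 without sample 1.

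Choroid plexus transcripts ran the other way across the same samples. The summed signal of the 5 measured choroid plexus markers, 2 of them expressed (Ttr and Folr1), was 134, 141, 335, 1802, 723 and 2133. Most of the sum in samples 3 to 6 was Ttr alone, at 215, 1504, 482 and 1798. Folr1 had 22.7, 38.9, 51.4, 123, 127 and 162. Aqp1 and Cldn2 stayed under the array median in every sample, and Aqp1 was highest in sample 1 (34.4). The part of choroid plexus transcripts in the Vamp2 and Snap25 values was not tested.

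Vamp1, the synaptobrevin that prevails in spinal cord and in some interneurons, did not follow Vamp2. Its signals were 219, 288, 322, 305, 336 and 208, so samples 1 and 6 were low and the other samples close together. The range was 1.62-fold, and this probe set was counted with the less specific ones by the ending of its name. A second Vamp1 probe set was dim throughout, at 24.3 to 43.7, always below the array median, so its values are not shown to be above background. It was lowest in sample 6 and next lowest in sample 1 (28.8). Sample 5, second highest by the first probe set after scaling, was close to sample 1 by the second (31.2), and sample 4 was highest. Together the 4 core SNAREs had median deviations of 0.11, 0.05, 0.11, -0.14, -0.08 and -0.12 in samples 1 to 6. Of the 4, 3 were lowest in sample 4, as were 20.7% of all expressed genes. Vamp2 was 1 of these 3 by its first probe set only.

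**Figure D3:**
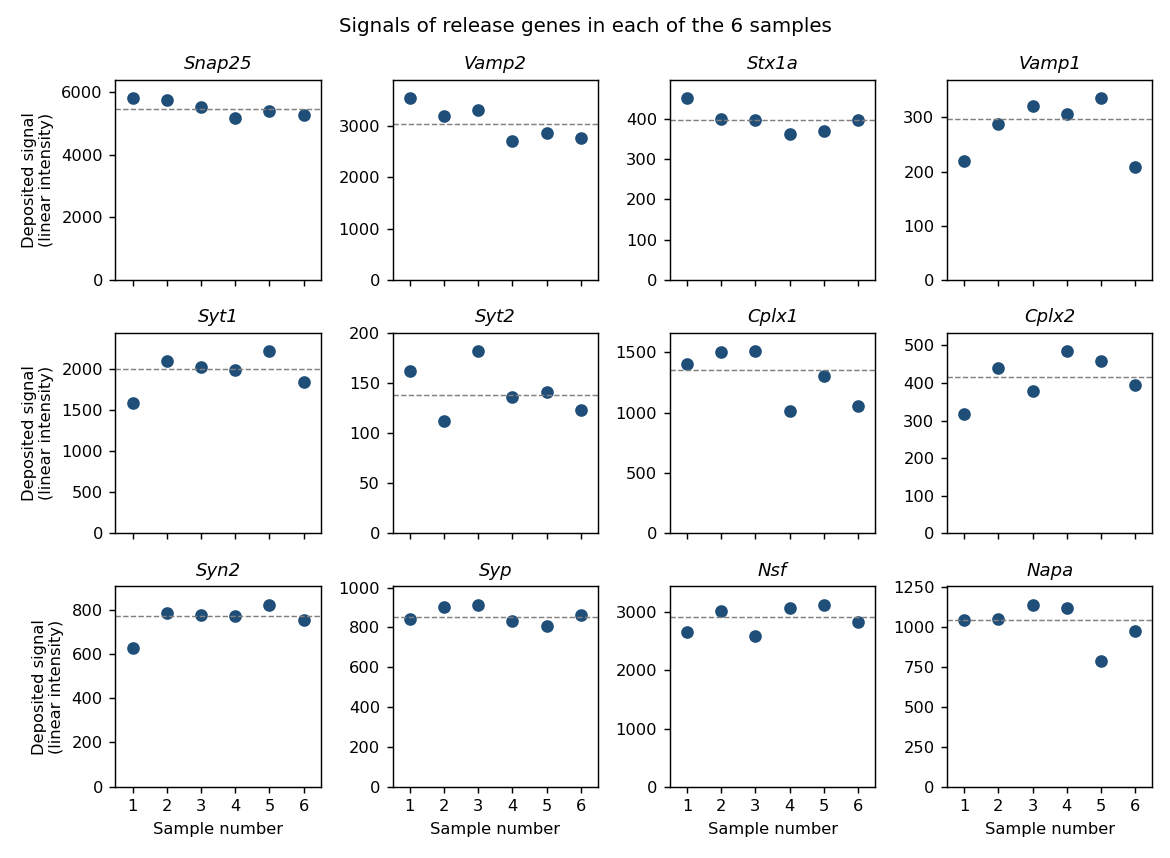
Deposited signal in linear intensity units (vertical axes, each from 0) of 12 members of the release machinery in samples 1 to 6 (horizontal axis); each point is 1 array and the dashed line is the median over the samples. Vamp2 is higher in samples 1 to 3 than in samples 4 to 6, and Syt1, Cplx2 and Syn2 are lowest in sample 1.

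The complexins differed in the order of their samples. Cplx1, described in the hippocampus mainly in inhibitory neurons, had signals of 1402, 1501, 1506, 1011, 1305 and 1053, a range of 1.57-fold with samples 4 and 6 low. Cplx2, described mainly in excitatory neurons, had 316, 439.7, 378, 484, 459 and 393, a range of 1.52-fold with sample 1 lowest and sample 4 highest. Sample 4 was thus 0.43 below the median of Cplx1 and 0.19 above that of Cplx2, on the log2 scale. The range of Cplx2 was 0.60 with all samples and 0.29 without sample 1.

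Markers of the corresponding neurons differed between the same samples. For the interneuron list, with 9 of 9 genes measured and expressed, summed signals were 5853, 5133, 5744, 4855, 5385 and 5382. The sum was lowest in sample 4, as was Cplx1, but next lowest in sample 2, where Cplx1 was second highest, and it was not low in sample 6. Within the list, Sst had 1195 in sample 4 (1339 to 1715 elsewhere). Pvalb had its highest deposited signal there (911), though not its highest value after scaling. For the list of hippocampal neurons they were 2905, 3773, 2575, 4224, 4338 and 3662, lowest in sample 3 and next lowest in sample 1. The low samples of Cplx1, 4 and 6, were also those with the highest choroid plexus sums given above (1802 and 2133). The part of these differences in the complexin values was not tested.

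The calcium sensors were the largest family, with 12 synaptotagmins measured and 7 expressed. Syt1, the fast calcium sensor of most forebrain synapses, had signals of 1584, 2096, 2026, 1989, 2217 and 1844. Sample 1 stood lowest, and the range of 0.48 on the log2 scale became 0.26 without it. Syt2, the fast sensor of parvalbumin interneuron terminals and of hindbrain synapses, had 162, 113, 182, 136, 142 and 124, a range of 1.65-fold with samples 3 and 1 above the rest. Its second probe set, at 21.3 to 51.3, never reached the array median and was highest in sample 5.

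Syt3, a high-affinity calcium sensor, had 259, 259, 275, 257, 319 and 190.3, the widest range of the family (1.67-fold). That range rested on sample 6: without it, the log2 value of 0.74 fell to 0.32. A second Syt3 probe set, marked as shared within a family, was under the array median throughout, at 38.5 to 62.4. It was lowest in sample 5, where the first was highest. The mean of both Syt3 probe sets gave 0.37. Syt11 and Syt5 were arranged like Vamp2 and Cplx1 at their lower end, with sample 4 lowest and sample 6 next. Syt11, a member that does not bind calcium, had 1139, 1050.1, 1184, 902, 1052 and 925, and Syt5, which is found on dense-core vesicles, had 540.3, 492, 536, 451, 483 and 460.4. Syt4, an activity-regulated member, ranged 1.25-fold and was highest in sample 2 (0.32 on the log2 scale, and 0.21 without it). Syt17 ranged 1.29-fold and was highest in sample 6.

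The other 5 synaptotagmins stayed below the array median on all 6 arrays. Syt7, a slow calcium sensor for asynchronous release, read 17.5, 33.9, 12.3, 32.6, 45.3 and 32.7. Syt8 read 9.52 to 11.6 in samples 1 to 5 and 41.9 in sample 6. Syt6, Syt9 and Syt10 did not exceed 17.4 in any sample. No fold is given for these genes, since none of their values is shown to be above background.

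Of the vesicle membrane and surface proteins, Syp, Syn2, Syngr1 and Syngr2 were expressed. Syngr1, a tetraspan protein of synaptic vesicles, had the widest range of all expressed members. Its signals were 225, 273, 193, 383, 419.9 and 319, so samples 3 and 1 were low, sample 2 came next, and samples 4 and 5 were high. The range was 2.06-fold, above 96.5% of the expressed genes. The range was 1.04 on the log2 scale, and 0.89 without sample 3 or 0.91 without sample 5.

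The summed signal of the hippocampal neuron markers, given above, was also lowest in samples 3 and 1, but the 6 expressed markers did not run alike. Camk2a, the most variable of them, had 412, 845, 275, 865, 1016 and 579, and Gria1 had 1245, 1542, 893, 1793, 1688 and 1613, both lowest in samples 3 and 1. Neurod6 had 244, 319, 403, 308, 352 and 309, highest in sample 3, and Neurod2 had 378, 493, 499, 526, 444 and 460.0, not low in sample 3. Sample 3 had the highest transferrin receptor and pyruvate carboxylase 3' to 5' ratios. The part of RNA quality or of the neuron share in the Syngr1 values was not tested.

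Syp, the most abundant tetraspan protein of the vesicle membrane, had 843, 901, 914, 833, 808 and 865, with a range of 1.19-fold (0.25 on the log2 scale, and 0.15 with quantile normalization). Syn2, a phosphoprotein that tethers vesicles to one another, had 629, 785, 777, 769, 822 and 754. Sample 1 alone was low, and without it the Syn2 range went from 0.38 to 0.12 on the log2 scale. Syngr2, the form found in most tissues, was dim at 78.9, 66.9, 73.1, 51.0, 69.3 and 93.1, lowest in sample 4 and highest in sample 6. Its range was 1.84-fold, or 1.48-fold when its 1 dim value is raised to the array median, and 0.44 in place of 0.88 on the log2 scale without sample 4. Syngr4 was not expressed, at 22.0 to 25.5.

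Nsf, the ATPase that separates the SNAREs after fusion, was among the steadier members. Its signals were 2661, 3009.7, 2583, 3071, 3126 and 2831, a range of 1.17-fold, with samples 1 and 3 low. Napa, the adaptor alpha-SNAP, had 1041, 1049, 1139, 1117, 786 and 978. Sample 5 stood lowest, and the Napa range of 0.61 on the log2 scale fell to 0.29 without it. Napb, the brain form beta-SNAP, had 777, 729, 643, 657, 607 and 635, highest in samples 1 and 2 and with a range of 1.29-fold (0.36 on the log2 scale, and 0.16 with the mean of both Napb probe sets). The second Napb probe set, whose name marks it as shared within a family, had 529, 592, 515, 597, 609 and 613 and was lowest, not highest, in sample 1 after scaling.

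Of the proteins that bind syntaxins, Stxbp2 and Stxbp3 were measured, which act mainly outside neurons. Stxbp3 had 79.5, 89.5, 123, 115, 103 and 96.2, a range of 1.63-fold, with samples 1 and 2 low and sample 3 highest. Stxbp2 had 194, 198, 188, 192, 175 and 169.9, a range of 1.19-fold with samples 5 and 6 low. Its second probe set, counted as less specific by the ending of its name, had 68.5, 79.9, 75.2, 110.2, 103 and 99.2. That set ran otherwise, with samples 4, 5 and 6 above samples 1, 2 and 3.

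The SNAREs of other membranes gave 13 expressed genes of 16 measured, with a median range of 1.28-fold. One of them, Stx8, ranged over 1.5-fold. Stx8, a SNARE of late endosomes, had 61.1, 71.9, 69.2, 47.4, 67.1 and 64.4, all near the array median. Its range was 1.57-fold, 1.17-fold when its dim values are raised to the array median, and 0.27 in place of 0.65 on the log2 scale without sample 4.

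Among SNAREs of endosomes and lysosomes, Stx7 ranged 1.32-fold (593 in sample 2 to 762 in sample 3), Stx12 1.27-fold and Vamp7 1.44-fold. On the log2 scale the Stx7 range of 0.40 was 0.25 without sample 2, and the Stx12 range of 0.34 was 0.22 without sample 1. Vamp8, read by a probe set marked as shared, ranged 1.41-fold and was highest in samples 5 and 6. A second, dimmer Vamp8 probe set, at 41.4 to 65.5, was under the array median in all samples but sample 6. After scaling it was highest in sample 6 but lowest in sample 5. Vamp3, the synaptobrevin of recycling endosomes, ranged 1.30-fold, close to the array median at 66.0 to 81.3.

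SNAREs of the Golgi apparatus and endoplasmic reticulum ranged between 1.22-fold and 1.37-fold. Stx5a ranged 1.28-fold and was highest in sample 1 (237 against 186 to 208 elsewhere). Stx6 ranged 1.22-fold and was lowest in sample 1, and Stx18 ranged 1.37-fold and was lowest in sample 6. Without sample 1 the log2 range of Stx5a went from 0.35 to 0.16 and that of Stx6 from 0.29 to 0.17, and without sample 6 that of Stx18 went from 0.45 to 0.27. Vamp4, a partner of Stx6, had 305, 249, 229.8, 294, 276 and 267, with a range of 1.26-fold. The second Vamp4 probe set had 259, 244, 217, 194, 229 and 250.0. Sample 1 was highest by both, whereas sample 4 was second highest by the first and lowest by the second.

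The plasma-membrane syntaxins Stx2 and Stx4a ranged 1.26-fold and 1.16-fold. Stx2 had 195, 192, 191, 204, 247 and 204, with sample 5 above the others, and its range of 0.33 on the log2 scale was 0.06 without that sample. Snap47, a SNAP-25 relative of neurons, was steady at 1792 to 1967 (1.16-fold). Snap23, Stx3 and Vamp5 stayed below the array median on every array, with Snap23 at 29.2 to 62.7, Stx3 at 25.6 to 41.1 and Vamp5 at 5.61 to 13.2.

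Snap91 entered the list by its name but encodes AP180, a clathrin adaptor that retrieves vesicle membrane. Its signals were 559, 503, 589, 673, 525 and 550.2, a range of 1.30-fold with sample 4 highest. Of the priming proteins of the active zone, only Unc13b was measured among the Rims and Unc13 genes, and it stayed below the array median everywhere, at 27.7 to 43.3. Syn1 and the Sv2 genes were not analysed here.

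Second probe sets give a check on how far the order of samples can be read. A second expressed probe set was present for 4 members (Vamp2, Vamp4, Napb and Stxbp2). It had the same highest sample as the first for 2 of the 4, Vamp2 and Vamp4, and the same lowest sample for 0 of the 4.

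**Figure D4:**
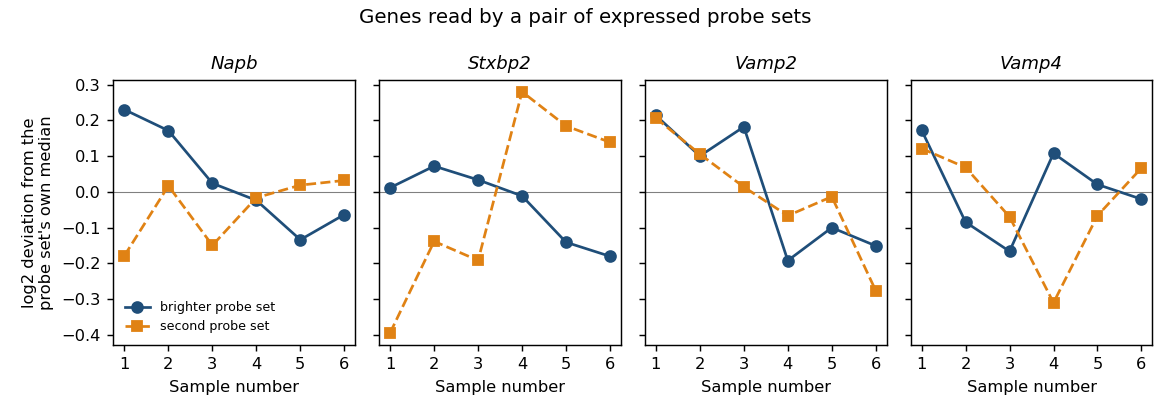
Log2 deviation from each probe set's own median (vertical axis) in samples 1 to 6 (horizontal axis) for the 4 members with a pair of expressed probe sets; blue circles are the brighter and orange squares the second probe set, and the lines only guide the eye, since samples have no order. Both Vamp2 probe sets are highest in sample 1, while those of Stxbp2 run in opposite directions.

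Other genes of the vesicle cycle, from a list of 47 that holds no member, gave 30 measured and 27 expressed genes. Their median range was 0.45, with 3 of 27 over 1 and 5 of 27 over 1.5-fold, where all expressed genes had 4.20% and 23.7%. Rab3a, the GTPase of synaptic vesicles, had 187, 199, 63.2, 65.7, 51.2 and 178, a range of 3.99-fold, or 3.24-fold when its 1 dim value is raised to the array median. Samples 1, 2 and 6 were high and the other three low, with nothing in between. The list of meninges and fibroblast markers, with 6 of 6 genes expressed, had median deviations of 0.24, 0.32, -0.17, -0.15, -0.20 and 0.27 in the same samples. Within it, Ptgds, Dcn and Slc6a13 were higher in samples 1, 2 and 6 than in the others. The rest were not: Col1a2 was nearly flat (541 to 592), and Igf2 was higher in sample 4 (575) than in sample 1 (471). Col1a1 was higher in sample 5 (127) than in sample 2 (117). The part of these markers in the Rab3a values was not tested. A second Rab3a probe set lay under the array median throughout, at 4.05 to 15.7, and did not show this pattern.

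Rab3b, a second vesicle GTPase, had 159, 95.6, 117, 69.4, 92.0 and 116, a range of 2.30-fold with sample 4 lowest (1.20 on the log2 scale, and 0.79 without that sample). Bsn, the active-zone scaffold bassoon, had 70.8, 109, 28.2, 99.4, 86.7 and 105. Its range of 3.79-fold became 1.78-fold when the value of sample 3, below the array median, is raised to it, and on the log2 scale 1.92 became 0.66 without that sample. Dnajc5, the vesicle chaperone CSP-alpha, ranged 1.73-fold and was highest in sample 6 (373), without which its range went from 0.79 to 0.43 on the log2 scale. Sh3gl1, an endophilin, ranged 1.51-fold and was highest in sample 2 (207), without which its range went from 0.60 to 0.39.

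**Figure D5:**
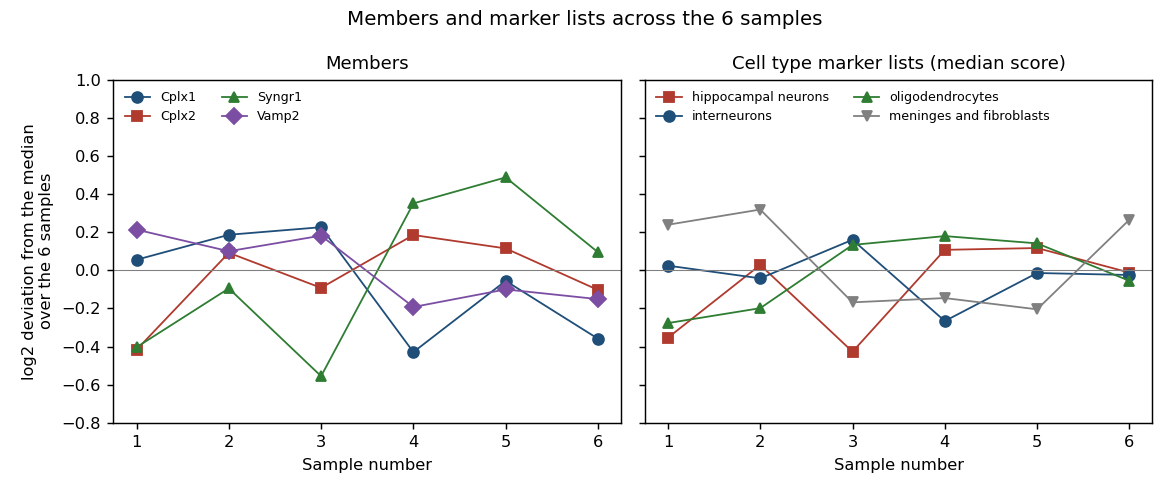
Log2 deviation from the median over the 6 samples (vertical axes) for Cplx1, Cplx2, Syngr1 and Vamp2 (left) and the median deviation of the genes of 4 cell type marker lists (right) in samples 1 to 6; lines only guide the eye. Syngr1 and the hippocampal neuron list are both lowest in sample 3 (-0.56 and -0.43), and Cplx1 and the interneuron list are both lowest in sample 4 (-0.43 and -0.27). In sample 6 Cplx1 is low (-0.36) and the interneuron list is not (-0.02). Single markers, not drawn, also differ from their lists: Neurod6 was highest in sample 3. Pvalb was not low in sample 4, where its deposited signal was highest (911) but its scaled value was not.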

How the data were processed

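Total RNA of 6 hippocampus samples was measured on 6 oligonucleotide arrays with 12488 probe sets, 66 of them controls. The deposited values are linear signal intensity, with 0 missing. For the authors' summary and scaling steps, the labels used here name no method. The mean between the 2nd and 98th percentile of each deposited column was 150.0, so arrays share a level and depth is unknown.

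Each array was divided by its median over non-control probe sets, values under 0.2 of it were set to that floor, and log2 was taken (Python 3.11.15, pandas 2.3.3). Gene names come from the platform annotation: 10833 had 1 symbol, 396 several and 1193 none, and 46 of 46 members matched RefSeq by gene identifier. All 6 samples are unassigned, so no group test was run. The scaling and range steps were tested on simulated data with less spread between arrays than these data have. That test checks the steps only, not how reliable the ranges and sample orders are here.

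The members, gene lists and rules were chosen with earlier results of these data known. Values in every sample are given for a fixed list of release genes, the 10 widest members, the widest of each role, members with a second expressed probe set of another order, and the 5 widest related genes. A few others (Syt5, Syt11, Stx2 and Syt7) were given after their values were seen. Alternatives were quantile or no scaling, other floors and filters, other probe sets, and leaving out each sample.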

Additional observations from a re-analysis of the deposited data

Results flagged for a closer look

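Stx2 and Syn2 were picked out because 1 sample stood apart from the other 5. For Stx2 the gap between its highest sample (sample 5, signal 247) and the next highest after scaling (sample 6, 204) took 0.82 of its whole log2 range. For Syn2 the gap between its lowest sample (sample 1, 629) and the next lowest (sample 6, 754) took 0.69. Both shares are above Dixon's 95% critical value for 6 samples. The high and the low end of 37 quantities were examined, the 36 expressed members and their median deviation, and 2 of 74 ends passed. About 1 in 20 quantities passes by chance.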

How the results depend on the processing

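The number of members with a range over 1 was 1, and 4 with no expression filter, where Snap23, Syt7 and Syt8, all under the array median, came in and all genes stood at 12.9%. Leaving out each sample gave 0 to 1, with 0 without sample 3 or sample 5. The number of expressed members (30 to 46), the number over 1.5-fold (7 to 14) and the median range (0.34 to 0.39) stayed within 1.5 times their values under all 14 alternatives. The 21 members given in full were followed over the 8 alternatives that keep all samples. The highest sample was the same in 155 of 167 cases and the lowest in 160 of 167. Much of that sameness was fixed in advance. Changing the expression filter, removing the floor or leaving out less specific probe sets could not alter the orders or ranges of the members compared. Snap25, Vamp1, Cplx1, Nsf and Syp changed their highest sample with quantile normalization. Of 293 ranges, 13 moved by over 1.5 times. Leaving out samples for the other members and the related genes was chosen after seeing the data. Precision is limited by there being only 6 arrays. No paired analysis was possible because no sample has a group.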
